A study of Mus musculus with 13 samples.

Results

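The genes described here code for the machinery that shows peptides to T cells, the major histocompatibility complex (MHC) class I and class II molecules and the proteins that load them. They were chosen by name, as protein-coding genes of the mouse H2 complex plus B2m, Tap1, Tap2, Tapbp, Psmb8, Psmb9, Psmb10, Nlrc5, Ciita and Cd74, which gave 43 genes of the 53465 in the count table. Liver RNA was sequenced from 6 WT and 7 Nod2-/- mice, 1 library per mouse, all male and all on the BALB/c strain background. All mice of both genotypes were given the carcinogen DMBA once on the skin as pups and ate a high-fat diet (HFD). The sample labels give 30 weeks for both the diet and the age, which the study's text words somewhat differently. They also give cancer as the disease state of every mouse in either group, but not the tumour load of each, so its part in the values was not tested. Nod2-/- mice lack Nod2, an intracellular receptor for bacterial peptidoglycan fragments, in all tissues. The genotypes were bred as separate lines, so genotype and breeding line cannot be told apart.

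Class I molecules sit on nearly all nucleated cells and consist of a heavy chain, the light chain beta-2 microglobulin (B2m) and a short peptide. The peptide is cut by the proteasome, pumped into the endoplasmic reticulum by the Tap1-Tap2 transporter and loaded with the help of tapasin (Tapbp). Class II molecules are made mainly by professional antigen-presenting cells, in the liver chiefly dendritic cells, macrophages and B cells. Their alpha and beta chains are held by the invariant chain Cd74 until the DM proteins exchange its last fragment for an antigenic peptide. Nlrc5 and Ciita, which like Nod2 belong to the NLR family, switch on class I and class II genes. In bulk liver RNA, fewer cells of a type and less RNA per cell cannot be told apart.

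The total count over genes was 14886273 to 20579984 per WT library and 13824780 to 19391431 per Nod2-/- library. Counts scaled with the TMM factors of edgeR, called normalized counts, are the unit of all levels below unless a level per length is named. The hepatocyte markers Alb and Apoa1 had at least 783884 and 122044 counts in every mouse, whereas 9 of the 10 T and NK cell markers were too low to be tested. Nod2 itself had 0 to 4 counts in WT and 1 to 6 in Nod2-/- mice, so its transcript could not check the labels. A pair of libraries stood apart from the rest. WT replicate 3 had the highest value of its genotype for most antigen presentation genes, and Nod2-/- replicate 7 had a summed level of 8 neutrophil markers of 945 CPM (counts scaled to a common library total), against 5.87 to 39.8 in the other Nod2-/- mice and 4.17 to 9.18 in WT mice. For the antigen presentation genes and the gene lists, calls that changed without either mouse are named below, not all of them with their values.

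Of the 43 genes, 28 had enough counts for edgeR's expression filter and were tested with the 13545 genes that passed it. Nod2-/- mice had increased expression of 1 of them, H2-Q4, at 5% FDR (edgeR, quasi-likelihood test, p adjusted by Benjamini-Hochberg over every gene tested). Over all genes, 88 passed this threshold as higher in Nod2-/- mice, 0.65% of those tested, and 1.16% passed in either direction. The log2 fold change was above 0 for 27 of the 28 genes, beside 52.3% of all genes tested, and its median was 0.52, beside 0.02 over all genes. Before adjustment, 17 of the 28 had an edgeR p under 0.05, all of them higher in Nod2-/- mice, whereas 12.9% of all genes tested did so in that direction and 23.1% in either. For none of the 28 did the Nod2-/- values lie wholly above or below the WT values, a pattern that 0.753% of all genes tested showed in the higher direction and 1.44% in either.

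The number of genes called depended on the test and on single mice, for these genes and for all genes alike. DESeq2 called 5 of them, H2-Q4, H2-Q7, H2-Q10, H2-DMa and Psmb8, all higher in Nod2-/- mice, beside 4.38% of all genes called higher and 8.41% called in either direction. limma's voomWithQualityWeights, which gives libraries that stand apart less weight, called H2-Q4, H2-Q6, H2-Q7 and H2-Q10, beside 3.83% of all genes called higher and 6.22% in either direction. Without WT replicate 3, edgeR called 8 genes, H2-Q1, H2-Q4, H2-Q6, H2-Q7, H2-Q10, H2-T22, Tap1 and Cd74, beside 5.12% called higher and 8.49% in either direction. That mouse was singled out for its high values in these same genes, so this is no even comparison with all genes. Without Nod2-/- replicate 7 edgeR called 0 of the 28, beside 0.209% of all genes called higher and 0.403% in either direction. In that fit 14 of the 28 had an unadjusted p under 0.05, beside 18.1% of all genes in either direction.

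**Figure D1:**
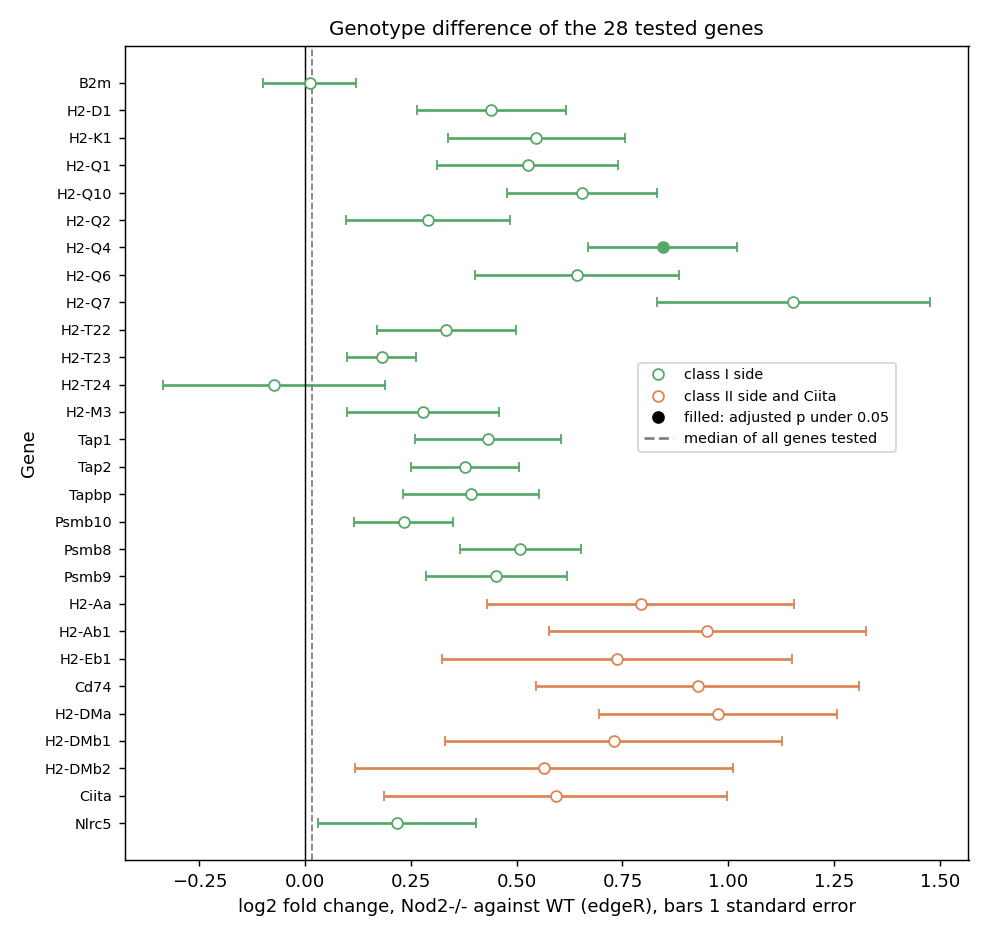
Log2 fold change of each of the 28 tested genes, Nod2-/- against WT, on the x axis, with bars of 1 standard error from edgeR; genes are ordered by role on the y axis, filled points passed 5% FDR, and the dashed line is the median of all genes tested (0.02). H2-Q4 at 0.84 is the only filled point, 27 points lie above 0, and the 5 longest bars belong to class II genes and Ciita.

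The mice of one genotype differed among themselves, and they did so over many of these genes at once. WT replicate 3 was higher than the other 5 WT mice in 24 of the 28 genes, beside 28% of all genes tested in that mouse. Nod2-/- replicates 4, 5 and 7 exceeded all 6 WT mice in 20, 21 and 16 of the 28 genes, beside 25%, 19.2% and 24% of all genes. Nod2-/- replicates 1, 2 and 6 exceeded all WT mice in only 2, 5 and 7 of them, beside 10.6%, 15.9% and 22.7% of all genes. Each of the 7 Nod2-/- mice was above the WT median in 19 to 28 of the 28 genes, with 50.3% to 52.3% of all genes above it. WT replicates 3 and 6, at 27 and 21 of the 28, were inside this range, and WT replicates 1, 2, 4 and 5 were at 4, 6, 9 and 17.

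**Figure D2:**
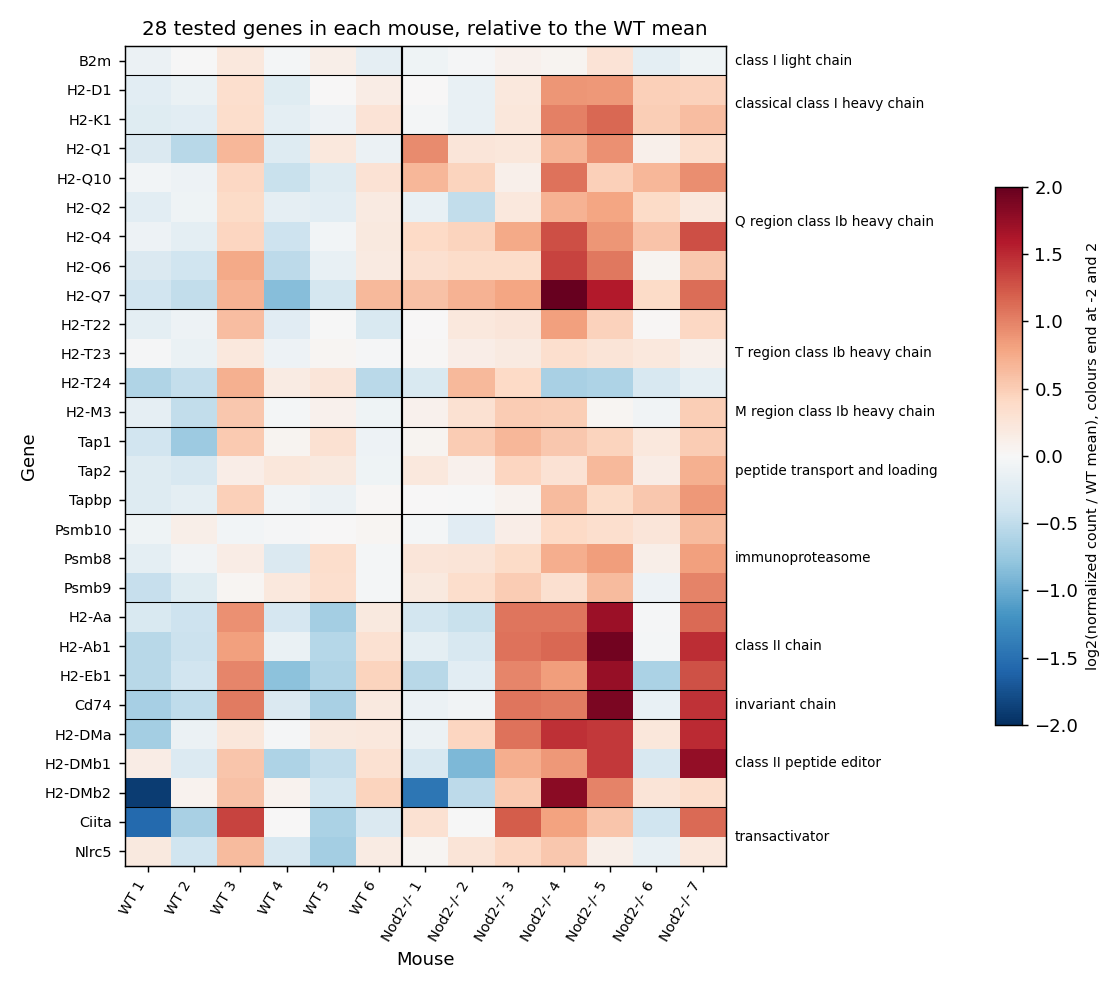
Level of each of the 28 tested genes (y axis, grouped by role) in each of the 13 mice (x axis), as the log2 ratio of the normalized count to the WT mean, with colours ending at a 4-fold difference. WT replicate 3 and Nod2-/- replicates 3, 4, 5 and 7 are red in nearly all class II genes, Nod2-/- replicates 1, 2 and 6 are near white or blue there, and the B2m row is close to white throughout.

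The class I heavy chains include the classical H2-K1 and H2-D1 and the class Ib genes of the Q, T and M regions of chromosome 17. The short-range promoters of MHC genes are known for a set of boxes bound by shared factors, among them the Y box, bound by NF-Y, the X box, bound by the RFX complex, and in many class I genes an interferon-stimulated response element (ISRE). The 140 bases before the RefSeq transcription start on build GRCm38.p6 are shown for the gene that passed the test (H2-Q4), for the most abundant heavy chain (H2-Q10), for the classical H2-K1 and for B2m, whose level was alike in both genotypes. Capitals mark Y box letters (ATTGG or CCAAT) and, in B2m, the ISRE (GAAA NN GAAA without gaps), each searched on both strands, and they do not overlap.
H2-Q4 (chr17:35379477-35379616, plus strand): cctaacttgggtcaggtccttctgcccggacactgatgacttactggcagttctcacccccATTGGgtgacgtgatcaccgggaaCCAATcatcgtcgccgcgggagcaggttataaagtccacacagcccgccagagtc
H2-Q10 (chr17:35469949-35470088, plus strand): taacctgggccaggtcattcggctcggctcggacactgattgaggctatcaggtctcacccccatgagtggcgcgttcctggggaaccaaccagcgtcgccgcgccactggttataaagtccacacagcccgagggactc
H2-K1 (chr17:34000334-34000473, minus strand): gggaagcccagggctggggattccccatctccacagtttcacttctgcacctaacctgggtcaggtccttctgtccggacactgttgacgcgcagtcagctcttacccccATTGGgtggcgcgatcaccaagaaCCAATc
B2m (chr2:122147547-122147686, plus strand): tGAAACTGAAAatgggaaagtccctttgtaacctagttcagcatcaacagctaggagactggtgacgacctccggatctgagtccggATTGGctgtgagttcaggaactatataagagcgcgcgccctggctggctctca
H2-Q4 and H2-K1 each hold a pair of Y box matches in opposite orientation, B2m holds an ISRE match 139 bases and a Y box match 53 bases before the start, and H2-Q10 holds no match to any of the motifs. RefSeq windows of 300 bases, 250 before and 50 after the start, were given for 36 of the 43 genes, and 31 of these (86.1%) hold a Y box match, beside 41.1% of the 27025 genes with a window. The ISRE letters occur in 3 of the 36 (8.33%), B2m, H2-T22 and H2-T23, beside 3.99% of all genes. A match describes the letters in the reference window and is not a measured site.

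The 6 Q region genes had the highest median log2 fold change among the class I groups, 0.65, with 5 of 6 below an unadjusted edgeR p of 0.05, 1 past 5% FDR and log2 fold changes of 0.29 to 1.15. H2-Q4, a class Ib heavy chain on chromosome 17 (35379617 to 35385290, ENSMUSG00000035929.11), had normalized counts from 317 to 564 with a median of 397 in WT mice, and from 554 to 1031 with a median of 709 in Nod2-/- mice. Nod2-/- replicates 4 and 7 were highest, 6 of 7 Nod2-/- mice lay above all WT mice, and Nod2-/- replicate 1 lay just below WT replicate 3. The means were 421 ± 87.8 (SD, n = 6) and 757 ± 202 (SD, n = 7), a log2 fold change of 0.84 ± 0.18 (SE) by edgeR or 1.80-fold, with an adjusted p of 0.0381. The two-sided exact permutation test over all splits of the 13 mice gave p = 0.00233, where 0.00117 is the smallest p it allows. Without Nod2-/- replicate 7 the log2 fold change was 0.76 with an edgeR adjusted p of 0.0707, and without WT replicate 3 it was 0.93 with 0.0169. H2-Q4 was not called at 5% FDR by edgeR without WT replicate 1, 2, 4 or 5 or without Nod2-/- replicate 4 or 7, and its adjusted p over the 13 fits that left out 1 mouse ran from 0.0169 to 0.107.

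H2-Q10, which codes for a class I molecule secreted by the liver, was the most abundant heavy chain per length, at 166 CPM per kb in WT mice and 262 in Nod2-/- mice. Its normalized counts ran from 8787 to 15975 with a median of 11327 in WT mice, and from 12861 to 25397 with a median of 19028 in Nod2-/- mice. Nod2-/- replicate 3 alone fell within the WT range, and the other 6 Nod2-/- mice lay above it. The log2 fold change was 0.65 ± 0.18 (SE), with an edgeR adjusted p of 0.0688 and an exact permutation p of 0.00583. H2-Q7, one of the genes of the Qa-2 antigen, had the largest fold change of the 28 genes, from a mean of 152 ± 70.5 (SD, n = 6) to 339 ± 165 (SD, n = 7). Its log2 fold change was 1.15 ± 0.32 (SE) with an edgeR adjusted p of 0.0723. WT replicates 3 and 6, at 246 and 237, overlapped with Nod2-/- replicates 1 and 6, at 228 and 197, and the other 5 Nod2-/- mice lay above them. H2-Q6 had a log2 fold change of 0.64, H2-Q1 of 0.53 and H2-Q2 of 0.29, with edgeR adjusted p of 0.139, 0.165 and 0.379.

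The classical heavy chains H2-K1 and H2-D1 present peptides to CD8 T cells and are the main transplantation antigens. H2-K1 had normalized counts from 2555 to 3885 with a median of 2737 in WT mice, and from 2737 to 6762 with a median of 4282 in Nod2-/- mice. H2-D1 ran from 5654 to 8368 with a median of 6389 in WT mice, and from 5989 to 12235 with a median of 9125 in Nod2-/- mice. In both genes Nod2-/- replicates 4, 5, 6 and 7 lay above all WT mice and replicates 1, 2 and 3 within the WT range. The log2 fold changes were 0.55 ± 0.21 and 0.44 ± 0.18 (SE), with edgeR adjusted p of 0.145 and 0.157.

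B2m, the light chain shared by all these heavy chains, was the most abundant of the 43 genes per length, at 1773 CPM per kb in WT mice and 1786 in Nod2-/- mice. Its normalized counts ran from 22238 to 29177 in WT mice with a median of 24896, and from 21995 to 30404 in Nod2-/- mice with a median of 24897. The groups overlapped almost fully, and the spread within a genotype was small, with a coefficient of variation of 10.2% in WT and 10.6% in Nod2-/- mice. The log2 fold change was 0.01 ± 0.11 (SE) with an edgeR adjusted p of 0.967, and its sign was turned by DESeq2, by using no filter and by leaving out any of 4 mice. Heavy chain counts were also read against B2m counts in the same mouse, which needs no scaling. This ratio was chosen after the values were seen, so it is a description and not a further test. The ratio of H2-Q4 to B2m counts was 0.0128 to 0.0216 in WT and 0.0230 to 0.0431 in Nod2-/- mice. By this ratio the groups did not overlap, whereas by normalized count they did. The ratio was not computed for all genes, so it has no background share. The ratio of H2-Q10 to B2m was 0.355 to 0.657 in WT and 0.479 to 0.966 in Nod2-/- mice, with 4 of 7 Nod2-/- mice above all WT mice. That of H2-K1 was 0.103 to 0.165 in WT and 0.110 to 0.232 in Nod2-/- mice. That of H2-D1 was 0.229 to 0.332 in WT and 0.241 to 0.465 in Nod2-/- mice. For H2-K1 and H2-D1, too, 4 of 7 Nod2-/- mice lay above all WT mice.

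**Figure D3:**
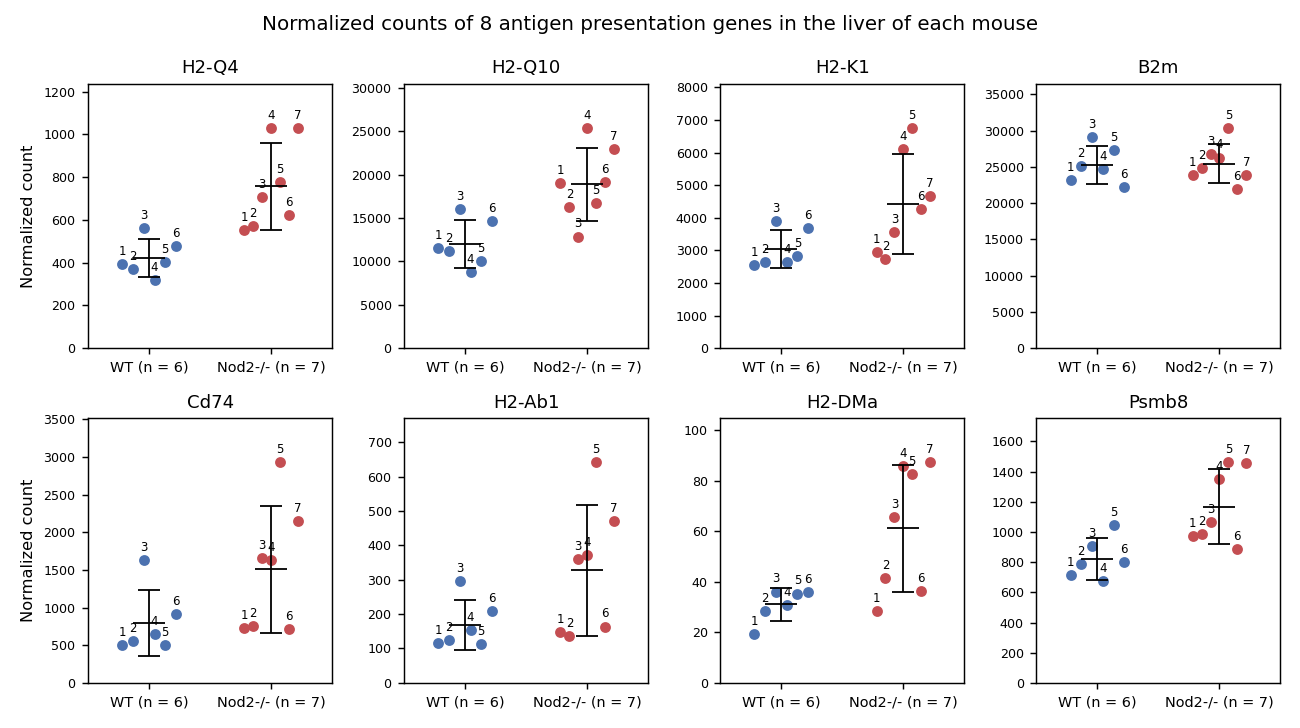
Normalized counts of 8 antigen presentation genes in each mouse (y axes start at 0, each with its own scale), with WT and Nod2-/- mice side by side; points carry the mouse's replicate number, and the horizontal line and bars are the mean and SD. H2-Q4 has 6 of 7 Nod2-/- mice above all WT mice, B2m overlaps almost fully, and Cd74 and H2-Ab1 are split within Nod2-/- mice, with replicates 3, 4, 5 and 7 high and 1, 2 and 6 low.

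The T and M region genes had smaller differences. H2-T23 codes for Qa-1, a class Ib molecule that presents leader peptides of other class I chains to NK and T cell receptors. It was the steadiest heavy chain, from 2715 to 3458 in WT mice and from 3049 to 3778 in Nod2-/- mice, with 2 of 7 Nod2-/- mice above all WT mice. Its log2 fold change was 0.18 ± 0.08 (SE) with an edgeR adjusted p of 0.202 and an exact permutation p of 0.0186. H2-T22, a ligand of gamma delta T cells, had a log2 fold change of 0.33 and H2-M3, which presents N-formylated peptides, one of 0.28, with edgeR adjusted p of 0.236 and 0.362. H2-T24 was the 1 gene with a value below 0, at a log2 fold change of -0.07 ± 0.26 (SE) and an edgeR adjusted p of 0.891, and this sign was turned by limma's voomWithQualityWeights and by leaving out WT replicate 3 or Nod2-/- replicates 4 or 5.

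The make-up of the heavy chain pool was described by each gene's share of all class I heavy chain counts in a mouse. H2-Q10 held 33.8% of them on average in WT mice and 37.8% in Nod2-/- mice, H2-D1 31.8% and 30.0%, H2-T23 12.9% and 10.4%, and H2-K1 12.7% and 12.8%. These shares depend on transcript length and on how shared reads were counted. The share of H2-Q4 was 1.83% to 2.06% in WT and 2.09% to 3.14% in Nod2-/- mice. By this share the groups did not overlap, by a narrow margin, whereas its normalized counts did overlap. The shares were not among the planned comparisons, and no background over all genes exists for them. The share of H2-T23 was 11.1% to 14.5% in WT and 8.46% to 12.6% in Nod2-/- mice, and the groups overlapped.

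The genes that make and load class I peptides had log2 fold changes of 0.23 to 0.51, and none was called by edgeR. Psmb8, the immunoproteasome subunit that replaces Psmb5, had normalized counts from 672 to 1048 with a median of 793 in WT mice, and from 886 to 1461 with a median of 1066 in Nod2-/- mice. Nod2-/- replicates 3, 4, 5 and 7 lay above all WT mice, though replicate 3 only by a small margin over WT replicate 5. The log2 fold change was 0.51 ± 0.14 (SE) with an edgeR adjusted p of 0.0740. Psmb9, which replaces Psmb6, ran from 291 to 506 with a median of 399 in WT mice and from 372 to 795 with a median of 510 in Nod2-/- mice, with a log2 fold change of 0.45 and an edgeR adjusted p of 0.132. Psmb10, which replaces Psmb7, had a log2 fold change of 0.23 and an edgeR adjusted p of 0.247. The Nod2-/- mice were less alike than the WT mice for this subunit, with coefficients of variation of 19.6% and 5.35%, a difference that was not tested.

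Among the genes of peptide transport and loading, Tap1 ran from 269 to 639 with a median of 439 in WT mice and from 465 to 706 with a median of 631 in Nod2-/- mice. The Nod2-/- mice were the more alike here, and 2 of 7 lay above WT replicate 3. Tap1, Tap2 and Tapbp had log2 fold changes of 0.43 ± 0.17, 0.38 ± 0.13 and 0.39 ± 0.16 (SE), with edgeR adjusted p of 0.156, 0.108 and 0.166. Nlrc5, the transactivator of class I genes, ran from 182 to 454 with a median of 281 in WT mice and from 263 to 424 with a median of 340 in Nod2-/- mice. All 7 Nod2-/- mice lay within the WT range, and the log2 fold change was 0.22 ± 0.19 (SE) with an edgeR adjusted p of 0.500. Nlrc5 lies 5.75 Mb and Psmb10 17.2 Mb from Nod2 on chromosome 8, and of 86 other genes tested within 5 Mb of Nod2 1 was called.

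The class II genes had a higher median fold change than the class I side, a difference that was not tested, and a larger spread between mice. All 8 tested genes of this side, Ciita included, had a log2 fold change above 0, with a median of 0.77, and 4 had an unadjusted edgeR p under 0.05, but none passed 5% FDR by edgeR, and DESeq2 called 1 of them, H2-DMa. On the class I side, Nlrc5 included, 19 of 20 were above 0, with a median of 0.41. To show the class II boxes, the 140 bases before the RefSeq start on build GRCm38.p6 are given for an alpha and a beta chain, with capitals on the X box core (GCAAC) and on Y box letters.
H2-Aa (chr17:34287824-34287963, minus strand): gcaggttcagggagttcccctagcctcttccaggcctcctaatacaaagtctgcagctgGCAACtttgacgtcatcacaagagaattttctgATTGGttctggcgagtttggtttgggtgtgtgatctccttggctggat
H2-Eb1 (chr17:34305727-34305866, plus strand): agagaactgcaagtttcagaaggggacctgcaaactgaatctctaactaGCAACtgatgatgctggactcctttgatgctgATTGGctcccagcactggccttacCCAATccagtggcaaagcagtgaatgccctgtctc
In both, the X box core stands upstream of the ATTGG letters, with 33 and 32 bases between their first bases. A GCAAC 28 to 36 bases upstream of an ATTGG, a spacing chosen after these positions were seen, occurs in 5 of the 8 class II genes with a window, H2-Aa, H2-Eb1, H2-Eb2, H2-Oa and H2-Ob, in none of the other 28 genes, and in 0.233% of all 27025. The X box core alone is in 13 of 36 windows (36.1%), beside 38.6% of all genes.

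Cd74, the invariant chain, had normalized counts from 500 to 1632 with a median of 604 in WT mice, and from 715 to 2926 with a median of 1629 in Nod2-/- mice. Nod2-/- replicates 3, 4, 5 and 7 and WT replicate 3 were at 1629 or above, the other 8 mice were at 908 or below, and the groups overlapped. For Cd74 the log2 fold change was 0.93 ± 0.38 (SE), with an edgeR adjusted p of 0.168 and an exact permutation p of 0.0606. Without WT replicate 3 it was 1.26 with an edgeR adjusted p of 0.0459, and without Nod2-/- replicate 7 it was 0.82 with 0.286. The call of Cd74 thus rests on 1 WT mouse, and without that mouse 8.49% of all genes were called.

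The class II chains form the peptide-binding molecules that Cd74 accompanies. H2-Ab1 ran from 114 to 297 with a median of 140 in WT mice, and from 136 to 641 with a median of 360 in Nod2-/- mice. H2-Aa ran from 113 to 340 with a median of 144 in WT mice, and from 132 to 588 with a median of 377 in Nod2-/- mice. H2-Eb1 ran from 122 to 422 with a median of 154 in WT mice, and from 138 to 714 with a median of 382 in Nod2-/- mice. In each of the 3 genes Nod2-/- replicate 5 was highest and WT replicate 3 was the highest WT mouse. Nod2-/- replicates 3, 4, 5 and 7 lay above WT replicate 3 in H2-Ab1 and H2-Aa, but only replicates 5 and 7 did in H2-Eb1. The log2 fold changes were 0.95 ± 0.37 for H2-Ab1, 0.79 ± 0.36 for H2-Aa and 0.74 ± 0.41 (SE) for H2-Eb1, with edgeR adjusted p of 0.152, 0.209 and 0.297. H2-Eb2 had at most 1 count in any mouse.

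The DM chains, which edit the peptides of class II molecules, were much less abundant. H2-DMa ran from 19.5 to 36.2 with a median of 33.0 in WT mice, and from 28.6 to 87.2 with a median of 65.7 in Nod2-/- mice. Nod2-/- replicates 4, 5 and 7 were highest, and only replicate 1 lay below WT replicate 3. For H2-DMa the log2 fold change was 0.98 ± 0.28 (SE), with an edgeR adjusted p of 0.0775 and an exact permutation p of 0.0175. H2-DMb1 and H2-DMb2, which share 25.4% and 23.9% of their sequence windows with each other, had log2 fold changes of 0.73 ± 0.40 and 0.57 ± 0.45 (SE), with edgeR adjusted p of 0.283 and 0.460. The DO chains, which restrain DM, were under the filter, at 0 to 8 counts for H2-Oa and 0 to 13 for H2-Ob.

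Ciita, the master regulator of class II genes, was the lowest tested gene per length, at 0.0760 CPM per kb in WT mice and 0.116 in Nod2-/- mice. It ran from 4.10 to 30.7 normalized counts with a median of 8.78 in WT mice, and from 9.10 to 27.7 with a median of 17.6 in Nod2-/- mice. WT replicate 3 was the highest of all 13 mice and the groups overlapped, with a log2 fold change of 0.59 ± 0.41 (SE) and an edgeR adjusted p of 0.392. Without WT replicate 3 the log2 fold change was 1.13 with an edgeR adjusted p of 0.0527.

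Levels were compared across the 13 mice for 6 pairs of genes, as log2 CPM. Cd74 went with Ciita at Pearson's r = 0.84 (permutation p = 0.0005, adjusted over the 6 pairs 0.0015) and Spearman's rho = 0.85 (permutation p = 0.00057). Within WT mice r was 0.91, within Nod2-/- mice 0.74, and without the 2 mice farthest from the Ciita median 0.83. H2-Aa went with Ciita at r = 0.76 (permutation p = 0.00284, adjusted 0.00568) and rho = 0.66 (permutation p = 0.0154), with 0.81 and 0.71 within the genotypes and 0.79 without the 2 farthest mice. Cd74 went with H2-Ab1 at r = 0.99 (permutation p = 1e-05, the smallest it can give, adjusted 6e-05) and rho = 0.93 (permutation p = 2e-05), with 0.99 within each genotype and 0.98 without the 2 farthest mice. Cd74 levels had a gap between 908 and 1629 normalized counts, so each pooled r includes a difference between high and low mice. Within the 8 mice below the gap, r was 0.68 for Cd74 with Ciita, 0.06 for H2-Aa with Ciita and 0.90 for Cd74 with H2-Ab1. These 8 mice were chosen by their low Cd74, which narrows the range of the levels compared.

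On the class I side, pairs with Nlrc5 were looked at. Tap1 and Nlrc5 had r = 0.49 (permutation p = 0.0824, adjusted 0.124) and rho = 0.71 (permutation p = 0.00822, adjusted 0.0164), with r of 0.25 within WT mice, 0.80 within Nod2-/- mice and 0.50 without the 2 farthest mice. B2m and Nlrc5 had r = 0.18 (permutation p = 0.548, adjusted 0.548) and rho = 0.20 (permutation p = 0.509), and r was 0.03 within WT and 0.48 within Nod2-/- mice, and 0.50 without the 2 farthest mice. The genes of a pair share libraries and their depth.

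**Figure D4:**
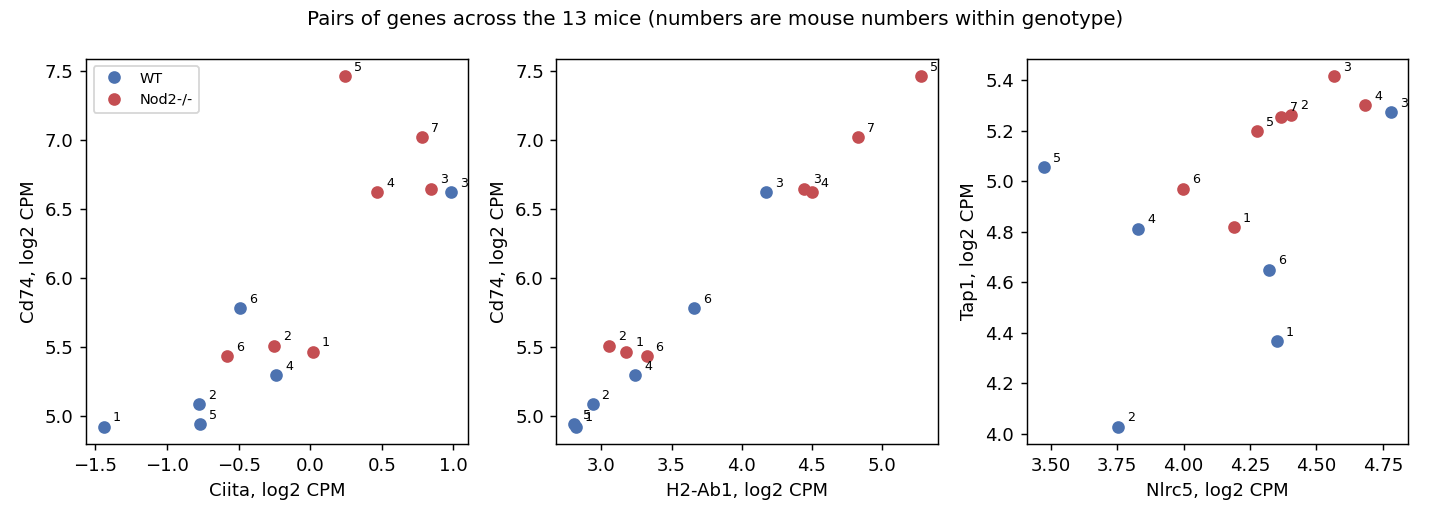
Level of Cd74 against Ciita, Cd74 against H2-Ab1 and Tap1 against Nlrc5 in each of the 13 mice, all axes in log2 CPM, with WT and Nod2-/- mice in different colours and replicate numbers beside the points. Cd74 and H2-Ab1 lie close to a line (r = 0.99), Cd74 and Ciita less closely (r = 0.84), and Tap1 and Nlrc5 scatter (r = 0.49).

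Because class II genes mark particular cells, the summed levels of marker lists are given beside them. The 8 dendritic cell markers summed to 5.16 to 11.4 CPM in WT and 6.19 to 13.5 in Nod2-/- mice, and the highest were Nod2-/- replicates 7 and 4, then WT replicate 3. Of the 8, 3 were tested, Zbtb46, Itgax and Clec9a, with log2 fold changes of -0.10, 0.41 and 0.88 and edgeR adjusted p of 0.739, 0.663 and 0.214. Zbtb46 had the highest mean normalized counts of the list, 75.4 in WT and 70.3 in Nod2-/- mice. Clec9a had 4 to 61 counts, and Xcr1, a defining marker of type 1 dendritic cells, had 1 to 5 counts. The 8 markers of B and plasma cells summed to 12.4 to 19.0 CPM in WT and 11.5 to 23.2 in Nod2-/- mice. That sum was mostly Jchain, with mean normalized counts of 213 in WT and 223 in Nod2-/- mice, so it describes mainly this gene. The tested genes of the list, Jchain, Cd79b and Mzb1, had log2 fold changes of 0.07, 0.97 and 0.45. The 6 Kupffer cell markers summed to 98.1 to 168 CPM in WT and 117 to 344 in Nod2-/- mice, and the 8 monocyte and macrophage markers to 60.1 to 151 and 67.5 to 285, with Nod2-/- replicate 7 highest in both. No gene of these 4 lists passed 5% FDR by edgeR or DESeq2, and 1, 1, 2 and 2 of them had an unadjusted edgeR p under 0.05. The median log2 fold changes of their tested genes were 0.41, 0.45, 0.48 and 0.39, beside 0.02 over all genes, and without Nod2-/- replicate 7 they were 0.23, 0.22, 0.21 and 0.14. The part of these cells in the class II values was not tested.

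Other genes of peptide processing and loading were taken from a list of 13, all of them tested. Of these, 1 was called by edgeR, 4 had a log2 fold change above 0, and the median was -0.14. At an unadjusted edgeR p under 0.05, 3 were higher and 3 lower in Nod2-/- mice, beside 23.1% of all genes in either direction. The called gene was Psmb5, the proteasome subunit that Psmb8 replaces, with 538 to 793 normalized counts in WT and 1034 to 1330 in Nod2-/- mice. None of the 7 Nod2-/- mice fell within the WT range, and the log2 fold change was 0.68 ± 0.10 (SE) with an edgeR adjusted p of 0.00435. Without WT replicate 3 edgeR called Psmb5 and Psme3, beside 8.49% of all genes. With all mice Psme3 had a log2 fold change of -0.24 and an edgeR adjusted p of 0.117. Psmb5 lies on chromosome 14 (54614119 to 54618022), where 10.6% of the 113 genes tested within 5 Mb were called, 7 higher and 5 lower, beside 1.16% of all genes. Psmb6 and Psmb7, the other constitutive partners, named here after their values were seen, had log2 fold changes of -0.12 and -0.22 with edgeR adjusted p of 0.430 and 0.201. The chaperones Hspa5, Calr and Pdia3, the most abundant of the list, had -0.26, -0.14 and -0.25, with edgeR adjusted p of 0.523, 0.545 and 0.329.

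Of 7 class I-like genes, edgeR called Cd1d2, which belongs to the CD1d family that presents lipids, and 4 had a log2 fold change above 0, with a median of 0.07. An unadjusted edgeR p under 0.05 was reached by 2 of them, higher in Nod2-/- mice. Cd1d2 had 7.23 to 23 normalized counts in WT and 26.7 to 85.3 in Nod2-/- mice, and the groups did not overlap. Its log2 fold change was 1.71 ± 0.38 (SE) with an edgeR adjusted p of 0.0456, or 0.0856 without Nod2-/- replicate 7. Its close copy Cd1d1, far more abundant, had a log2 fold change of -0.19 with an edgeR adjusted p of 0.569, and reads of the copies may be split. Azgp1 and Fcgrt had log2 fold changes of -0.05 and -0.08.

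The 7 genes of the class II pathway, which cut the invariant chain or antigens or move class II molecules, all had a log2 fold change above 0, with a median of 0.45, and none was called by edgeR, though 2 had an unadjusted p under 0.05 and DESeq2 called 1. Among them Lgmn, an endosomal protease, had normalized counts of 747 ± 219 (SD, n = 6) in WT and 1529 ± 886 (SD, n = 7) in Nod2-/- mice, with an edgeR adjusted p of 0.0774. Without WT replicate 3 Lgmn was called by edgeR, the only one of the list, with a log2 fold change of 1.18 and an adjusted p of 0.0366, and without Nod2-/- replicate 7 it had 0.98 and 0.140. The cathepsins Ctsl and Ctss had log2 fold changes of 0.35 and 0.45, with edgeR adjusted p of 0.340 and 0.344. None of the 8 class II promoter factors was called either, with a median log2 fold change of 0.06, 7 of 8 above 0, 2 with an unadjusted edgeR p under 0.05 and 0 called by DESeq2. Nfyb, Atf1 and Nfyc, the most abundant of them, had log2 fold changes of 0.20, -0.09 and 0.07, with edgeR adjusted p of 0.211, 0.553 and 0.693.

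The interferon gamma signalling genes, which are known to drive MHC genes, had a median log2 fold change of 0.08, with 11 of 17 tested above 0 and none called by edgeR or DESeq2, and 2 had an unadjusted edgeR p under 0.05. Without WT replicate 3 the median was 0.19 and edgeR called 1, the receptor chain Ifngr1. Ifng itself had 0 to 2 counts and was at 0 in 9 of 13 mice. The abundant interferon-induced GTPase Iigp1 had a log2 fold change of -0.25, Jak1 of 0.06 and Irf2 of -0.17, with edgeR adjusted p of 0.448, 0.749 and 0.360. Of 11 receptors of MHC molecules, 5 were tested, none was called by edgeR (1 by DESeq2, and 1 with an unadjusted edgeR p under 0.05), and 4 had a log2 fold change above 0. Cd8a had 0 to 7 counts, and Pirb, an inhibitory receptor of myeloid cells, had a log2 fold change of 1.30 with an edgeR adjusted p of 0.129, or 0.63 with 0.246 without Nod2-/- replicate 7.

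The 15 genes under the filter were nearly silent at this depth. Of these, 9 had no count in any of the 13 mice. A count of 0 in a single library allows up to 3 counts there by counting error alone, and 0 in all 13 libraries sets a lower limit. The 9 genes were H2-M1, H2-M9, H2-M11 and the 6 genes H2-M10.1 to H2-M10.6, a family known from vomeronasal neurons. H2-M2, H2-M5, H2-T3, H2-Oa, H2-Ob and H2-Eb2 had some counts, with 13 as the highest, and on exact permutation tests the 4 of them with more than 3 counts in a mouse gave p from 0.198 to 0.718.

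How far single H2 genes can be told apart was looked at with the 43-base windows of their GENCODE transcripts, since the reads were 43 bases long. The study reports read pairs, and a window describes a single read without the other of its pair. A pair may be placed where a single read cannot, so the shares below can be too high. The windows are of the reference sequence and not of BALB/c alleles. H2-T22 shared 58.3% of its windows with another gene, mainly the pseudogene H2-T10, H2-Q4 shared 41.8%, H2-Q6 40.2%, H2-Q7 30.1%, H2-Q10 22%, H2-D1 17.2% and H2-K1 13.1%. B2m, H2-Ab1 and Psmb10 shared none, and Cd74 0.466%. H2-DMa shared 8.72% of its windows with Brd2, and Psmb9 4.41%, mainly with Tap1. Whether reads that fit several genes were counted, and on which strand, is not given in the sources used here, so values of the Q and T genes may include reads of their neighbours. With the Q genes, the T genes and the classical heavy chains each summed to 1 feature, none of the 20 features that remained was called by edgeR, beside 1.15% of all features, 11 had an unadjusted p under 0.05, beside 23% of all features, and all 20 had a log2 fold change above 0.

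**Figure D5:**
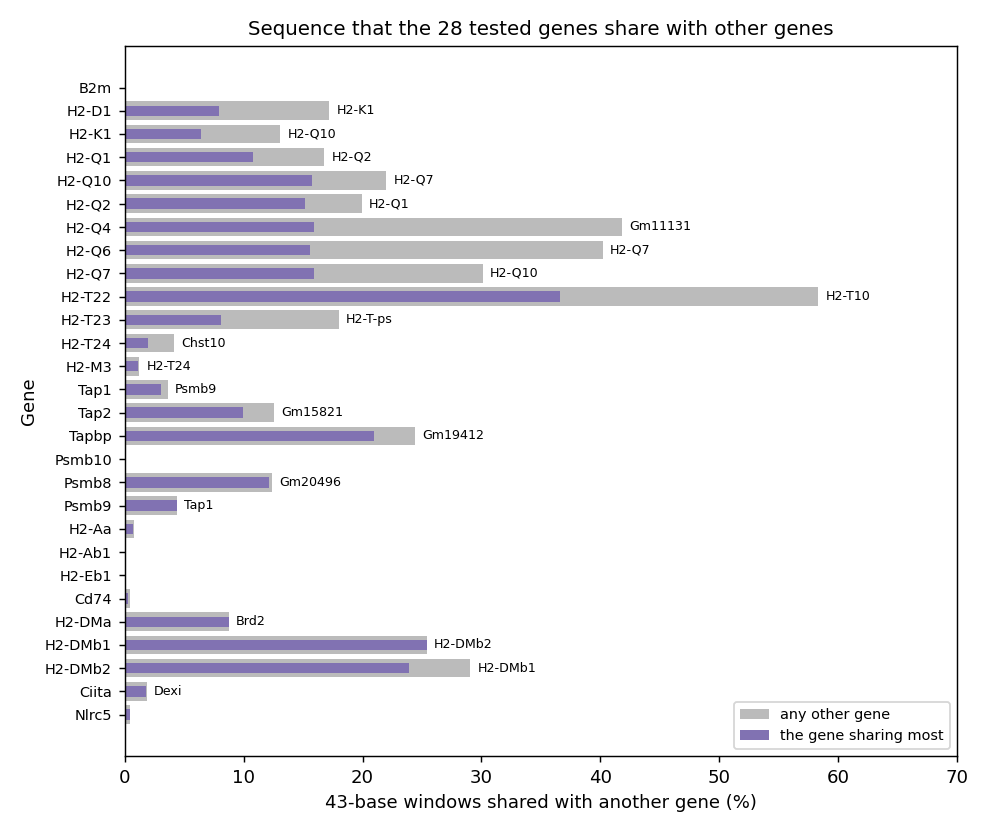
Share of the 43-base windows (x axis, percent) of each of the 28 tested genes (y axis) that also occur in another gene of GENCODE, grey for any other gene and violet for the gene that shares most, whose name stands beside the bar. H2-T22 at 58.3%, H2-Q4 at 41.8% and H2-Q6 at 40.2% share most, and B2m, H2-Ab1 and Psmb10 share none.

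BALB/c mice carry the H-2d haplotype, whereas the reference genome is of C57BL/6, which carries H-2b, so reads of H2 alleles may map unevenly. H2-Ea-ps, the E alpha gene that is silenced in H-2b mice by a promoter deletion, had 88 to 369 counts in WT and 108 to 434 in Nod2-/- mice. Both genotypes thus expressed it, with a log2 fold change of 0.70 and an edgeR adjusted p of 0.234. Between the first and the last of the chromosome 17 genes, 98 other genes were tested, of which 1 was called as higher (1.02%), with a median log2 fold change of 0.17.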

How the data were processed

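Liver RNA-seq libraries, 1 for each of 6 WT and 7 Nod2-/- animals, were compared. Per the submitters' notes and the study's methods, the authors trimmed reads with Trimmomatic 0.33, aligned them with TopHat2 2.1.1 to GRCm38 with a GENCODE annotation, and deposited 1 table of raw counts per gene. The counting program, its strand setting and its treatment of reads with several matches are not given in the sources used here. A row without a gene name was left out, and 53360 of 53465 genes were found in GENCODE M21, from which positions and exon lengths were taken. The members and lists were chosen with earlier results of these data known.

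Genotypes were compared with edgeR 4.0.16 (R 4.3.3; TMM, filterByExpr, quasi-likelihood test), fitted to all 13545 genes that passed the filter, with Benjamini-Hochberg adjustment and a threshold of 0.05. Single genes with more than 3 counts in a mouse were also tested by a two-sided exact permutation test of the difference of mean normalized counts over all splits of the 13 mice, without adjustment. Correlations used log2 CPM (prior count 2) with 100000 permutations, adjusted over the 6 pairs computed, 1 of which is not reported here. Values of single mice are the lowest, median and highest of a genotype, and means have SDs over mice. Genes named outside the members were those called or the 3 most abundant of a list, and beyond this rule Psmb6, Psmb7, Ifng, Cd8a and single cell markers. Alternatives were DESeq2 1.42.0, limma 3.58.1 voomWithQualityWeights, RLE scaling, no filter, a minimum of 10 counts in every mouse, a robust fit, the replicate number as a block, summed paralogs, and leaving out each mouse. The scripts were tested on simulated data. No pair of libraries of a genotype among the 36 was as alike as sampling alone would make it (the chi-square divided by its degrees of freedom was 10.7 or more). The libraries are separate mice by the labels.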

Additional observations from a re-analysis of the deposited data

Results flagged for a closer look

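In 4 of the 56 combinations of a tested gene and a genotype, 1 mouse stood far from the others by Dixon's criterion, and each time it was WT replicate 3. Chance flags about 1 in 20 such groups, and the genes are not independent. Among the 6 WT mice, Cd74, the invariant chain, was at 1632 normalized counts in this mouse, with the next WT mouse at 908. Ciita, the class II transactivator, was at 30.7 with the next at 12.1, and this was also above all 7 Nod2-/- mice. H2-T22, the gamma delta T cell ligand, was at 1165 with the next at 750.2. Tapbp, tapasin, was at 1778 with the next at 1302. The same mouse had the highest summed marker level of the WT mice for dendritic cells (11.4 CPM), T and NK cells (6.21 CPM), monocytes and macrophages (151 CPM, with the next at 147), sinusoidal endothelium (233 CPM) and cholangiocytes (216 CPM, with the next at 124). It was the lowest WT mouse for B and plasma cells (12.4 CPM), a sum that was mostly Jchain. For Kupffer cells it was at 160 CPM, below WT replicate 4 at 168. It was not the highest for neutrophils (6.92 CPM, highest 9.18) or hepatocytes (111500 CPM, highest 119258). The part of these markers in the 4 values was not tested.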

How the results depend on the processing

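The number of antigen presentation genes called, 1 by edgeR, was 5 by DESeq2, 4 by voomWithQualityWeights, and 0 with paralogs summed, and it ran from 0 to 8 when 1 mouse was left out, with 8 without WT replicate 3. Over all genes, the 157 called became 1209 by DESeq2 and 843 by voomWithQualityWeights, and 41 to 1156 when 1 mouse was left out. Of the pathway lists, 2 genes were called, 4 by DESeq2, 4 by voomWithQualityWeights, 1 under the stricter minimum of 10 counts, and 1 to 5 when 1 mouse was left out. For the log2 fold changes of the 28 genes, 525 alternative values kept their direction and side of the threshold, 16 passed it anew, 7 no longer passed it, and 10 changed sign, all of B2m or H2-T24, which were near 0 throughout. B2m had -0.0073 by DESeq2, -0.0064 with no filter, -0.037 to 0.043 when 1 mouse was left out, and an exact permutation p of 0.995 with RLE scaling. H2-T24 had 0.048 by voomWithQualityWeights and -0.25 to 0.11 when 1 mouse was left out. With RLE scaling the exact permutation p of Tapbp was 0.0501. Of the 6 correlations, r of B2m with Nlrc5 ran from -0.010 (without WT replicate 3) to 0.42 when 1 mouse was left out, and that of Tap1 with Nlrc5 from 0.35 to 0.68, which passed 0.05 without WT replicate 5. The cause of these shifts was not tested.

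The replicate numbers are shared between genotypes but pair no mice. Mice with the same number correlated at -0.30 to 0.30 in their deviations from the genotype means, and none of the 6 WT mice went best with its own number. With the replicate number as a block, edgeR called 0 of the 28 genes (10 at an unadjusted p under 0.05, beside 18.4% of all genes), 35 of all genes and 1 of the pathway lists, and H2-Q4 had an adjusted p of 0.134.

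One tissue at one time was sequenced, genotype and breeding line cannot be told apart, and Nod2 counts were too low to check the labels. Counts of the Q and T genes share sequence, and the reference carries another H2 haplotype than BALB/c mice. The spread between mice differed between genes, with standard errors of the log2 fold change of 0.08 for H2-T23 and 0.45 for H2-DMb2.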

Other observations

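Of the 12 H2 genes that are no members, the most abundant are described here and H2-Ea-ps above. H2-K2, H2-Bl, H2-T-ps, H2-Q3 and the others had at most 167 counts in any mouse, and 3 had none. H2-Q5 had 58 to 217 counts in WT and 86 to 365 in Nod2-/- mice, with a log2 fold change of 0.76 and an edgeR adjusted p of 0.163. H2-T10, which shares sequence with H2-T22, had 142 to 321 and 181 to 326 counts, with a log2 fold change of 0.48 and an edgeR adjusted p of 0.124.

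The ratio of H2-Aa to H2-Ab1 counts, an alpha and a beta chain that pair with each other, was 0.922 to 1.27 in WT and 0.848 to 1.08 in Nod2-/- mice, while the level of H2-Ab1 itself ran from 114 to 641 normalized counts over the 13 mice. The ratio of H2-Eb1 to Cd74 counts was 0.188 to 0.319 in WT and 0.193 to 0.254 in Nod2-/- mice, and the groups overlapped. These ratios depend on transcript length and were chosen after the values were seen.

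Of the cell type lists not given above, the 4 tested neutrophil markers had a median log2 fold change of 3.42, with none called by edgeR and 3 by DESeq2, and Nod2-/- replicate 7 far above all other mice. Without that mouse their median was 1.28. The median was 0.06 for 6 markers of sinusoidal endothelium and -0.05 for 8 hepatocyte markers, with none called by edgeR, 1 and 3 called by DESeq2, and 1 and 4 with an unadjusted edgeR p under 0.05. Without WT replicate 3 edgeR called 1 of each list, Pecam1 and Cyp2e1, beside 8.49% of all genes. The 1 tested T and NK cell marker had a log2 fold change of 0.26 and was not called. The 5 cholangiocyte markers had a median of 0.24, with 3 above 0, and summed to 35.6 to 216 CPM in WT and 107 to 402 in Nod2-/- mice, with WT replicate 3 the highest WT mouse. This sum was mostly Spp1, with mean normalized counts of 1452 in WT and 3586 in Nod2-/- mice. Krt7 and Krt19 had log2 fold changes of -0.05 and -0.40 and Spp1 of 1.30, with edgeR adjusted p of 0.943, 0.587 and 0.109. From this list edgeR called only Sox9, a transcription factor of bile duct cells, with a log2 fold change of 1.29 and an adjusted p of 0.0324, or 0.0567 without Nod2-/- replicate 7. Without WT replicate 3 edgeR called Sox9 and Spp1, beside 8.49% of all genes.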
